A study of Mus musculus with 2 samples.

Results

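Markers of upper layer cortical neurons, namely Cux1, Cux2, Rorb, Rasgrf2, Lamp5, Mdga1, Pou3f1, Pou3f2 and Pou3f3, were followed in RNA-seq of mouse frontal cortex. They were chosen by name, with earlier results of these data known, and all 9 were found among 43346 annotated genes, with 50 of 103639 annotated transcripts. The study holds 1 group of 2 biological replicates. Both are frontal cortex of adult C57BL/6J wild-type strain mice aged 8 weeks, described in the labels as littermates of both sexes that were pooled, and the labels name no genotype change or treatment. Polyadenylated RNA above 200 nt, depleted of ribosomal RNA, was sequenced as stranded read pairs, and ERCC spike-in RNAs had been added. Because no second condition exists, the levels, the transcripts used and the differences between the libraries are described, and no p-value is given. An exact sign-flip test over 2 libraries cannot go below 0.5.

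The neocortex is built in layers, and the upper layers hold mainly excitatory neurons that project to other cortical areas, whereas deep layer neurons project largely out of the cortex. Cux1 and Cux2 are homeodomain transcription factors that shape dendrites and synapses of upper layer neurons. Rorb, an orphan nuclear receptor, marks mainly layer 4. The POU factors Pou3f1, Pou3f2 and Pou3f3 (also called Oct6, Brn2 and Brn1) act during the birth and migration of upper layer neurons. Rasgrf2 is an exchange factor that activates Ras and Rac, Mdga1 is a membrane-anchored protein that binds neuroligins, and Lamp5 is a membrane glycoprotein of the LAMP family. None of these genes is confined to upper layer neurons. Lamp5, for instance, also marks a class of cortical interneurons, and the source cells of an RNA cannot be read from bulk tissue.

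Expected counts (fragments assigned by the authors' quantification) totalled 106084891 for replicate 1 and 90476207 for replicate 2, and spike-ins took 3.50 and 3.47% of them. The libraries do not match the label of pooled sexes. Xist, which coats the inactive X, was counted 107 times in replicate 1 and 77696 times in replicate 2, and the Y-linked gene Eif2s3y 7150 and 3 times. The excitatory markers Slc17a7, Camk2a and Neurod6 were all detected, as were the 15 matched deep layer genes, at 3.55 to 453 TPM, and all 9 upper layer genes were detected in both libraries. The GABAergic marker Gad1 had 468 and 631 TPM, where Slc17a7 had 447 and 401 TPM, while Gad2 and Slc32a1 had means of 45.9 and 83.7 TPM. Counts of Gad1 were 79612 and 73517. Part of its rise in TPM came with the effective length used, 2057 nt in replicate 1 and 1554 nt in replicate 2. All 6 genes of the olfactory bulb list were detected as well, at 4.995 to 199 TPM, among them Doc2g at 149 and 161 TPM. Levels are those of the dissected tissue as a whole, and the share of bulb tissue in them was not tested.

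The 9 genes spanned a 26.1-fold range of level. Levels are TPM, a share of all transcripts after division by length, with the SD over 2 libraries. Lamp5 stood far above the others, with 103 TPM in replicate 1 and 139 TPM in replicate 2 (121 ± 25.2, n = 2). Rasgrf2 had 38.2 and 41.3 TPM (39.7 ± 2.23), and Cux1 had 33.6 and 33.4 TPM (33.5 ± 0.148). Of the 13234 nuclear protein-coding genes whose mean reached 1 TPM, 94.6% lay below Lamp5 and 75.3% below Cux1.

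Cux2 had 24.2 TPM in replicate 1 and 27.7 TPM in replicate 2 (25.9 ± 2.47). Pou3f3 had 15.4 and 15.6 TPM (15.5 ± 0.184), and Mdga1 had 14.2 and 13.5 TPM (13.9 ± 0.488), both close to the median of those coding genes, 13.9 TPM. The layer 4 gene Rorb and the other POU factors were the lowest of the 9. Pou3f2 had 7.28 and 7.15 TPM (7.22 ± 0.0919), Rorb 5.47 and 5.82 TPM (5.65 ± 0.247), and Pou3f1 3.58 and 5.69 TPM (4.63 ± 1.49), a level that 21.5% of coding genes lay below.

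Neighbours in this order were called apart when their log2 ratio had 1 sign in both libraries and exceeded its SD, and the deposited TPM intervals did not overlap in either library. By that rule 6 of 8 neighbouring pairs were apart in TPM. Counts not divided by length changed the sign of 2 of these 6, Cux1 over Cux2 at −0.084 and Pou3f2 over Rorb at −0.34 on the log2 scale. The Cux1 and Cux2 counts were close, with 10737 against 10852 in replicate 1 and 10118 against 11251 in replicate 2. Another of the 6, Rasgrf2 over Cux1 (0.24 ± 0.09), rests on summed partial models of Rasgrf2, described below. Pou3f3 and Mdga1 were not called apart, since their intervals overlapped in replicate 1 (log2 ratio 0.16 ± 0.07). Rorb and Pou3f1 were not either, with a ratio of 0.61 in replicate 1 and 0.03 in replicate 2. Lamp5 exceeded Rasgrf2 by 1.59 ± 0.22 on the log2 scale in TPM, the widest step between neighbours. Their counts not divided by length were close, with 12331 for Lamp5 and 12736 for Rasgrf2 in replicate 1 and 14831 and 12205 in replicate 2, so the order of the counts changed between the libraries.

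**Figure D1:**
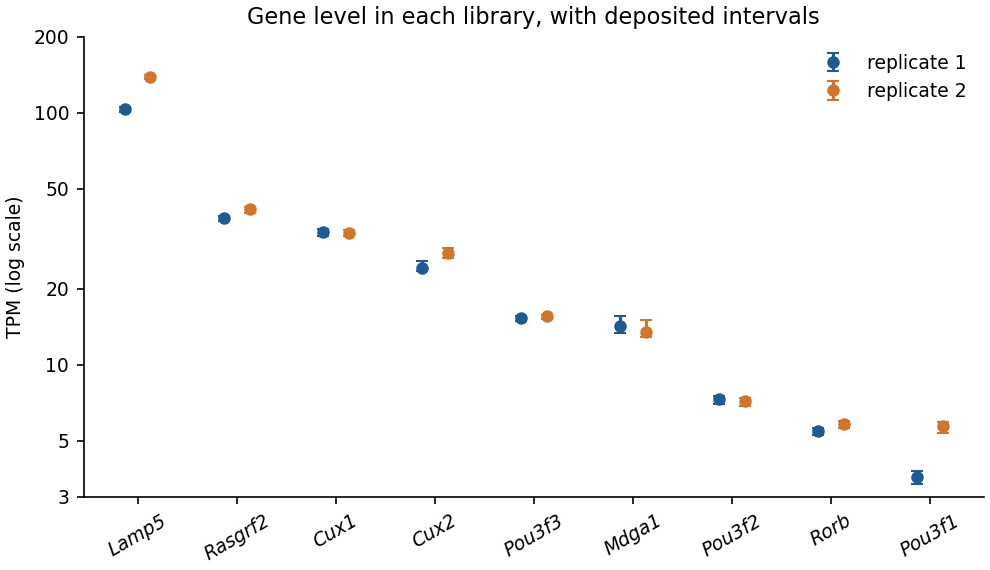
Level of each gene (TPM, log axis) in replicate 1 and replicate 2, ordered by mean level; bars are the deposited intervals, whose level the files do not state. Lamp5 stands at 103 and 139 TPM and Pou3f1 at 3.58 and 5.69 TPM, and these 2 genes have the libraries farthest apart.

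The level of Cux1 hides a split between 2 kinds of transcript. The locus (ENSMUSG00000029705.13, chr5:136248135-136567490, minus strand, mm10) gives a long form that encodes the homeodomain factor and a short form, known as CASP, a Golgi membrane protein that shares the 5′ exons and lacks the DNA-binding domains. Both begin near the 5′ end of the locus, have 12 identical exons and part after exon 14 (chr5:136314307-136314403). The long form then enters an exon at chr5:136312643-136313008, and the short form skips to one at chr5:136257913-136258040. The bases on either side of this junction are shown because they are where a read tells the forms apart, with the last 40 bases of the shared exon in lower case and the first 40 bases of the next exon in capitals (GENCODE M21 transcripts).
Cux1-201 junction (long form): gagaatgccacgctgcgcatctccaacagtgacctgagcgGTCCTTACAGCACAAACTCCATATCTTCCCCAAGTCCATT
Cux1-211 junction (short form): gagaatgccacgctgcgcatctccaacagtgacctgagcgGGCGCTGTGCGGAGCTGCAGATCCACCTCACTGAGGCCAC

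By TPM the short form was the main product of Cux1. Transcripts with the 3′ end of the short form summed to 23.3 TPM in replicate 1 and 23.6 TPM in replicate 2 (23.4 ± 0.212), which is 69.8 ± 0.912% of the gene. That sum includes Cux1-205, an incomplete coding model, at 4.00 and 4.64 TPM. Transcripts with the 3′ end of the long form summed to 5.86 and 6.25 TPM (6.05 ± 0.276), or 18.1 ± 0.895%. The rest lay on 3 transcripts that reach neither end. The leading short transcript, Cux1-211, with a coding sequence of 676 codons, stood at 16.3 TPM in replicate 1 (deposited interval 14.8 to 17.1) and 16.4 TPM in replicate 2 (15.0 to 17.5). The leading long transcript, Cux1-201, with 1426 codons, stood at 4.87 TPM (4.68 to 4.97) and 5.35 TPM (5.15 to 5.46). The 2 intervals do not meet in either library, and the short form exceeded the long form by 1.95 ± 0.05 on the log2 scale.

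Much of that distance rests on length. Cux1-201 is 12862 nt long and Cux1-211 is 2831 nt, and counts not divided by length put the short form under the long form, at −0.25 ± 0.08 on the log2 scale, with 4827 against 5531 counts in replicate 1 and 4393 against 5427 in replicate 2. The short form took 45.0 and 43.4% of the gene's counts and the long form 51.5 and 53.6%, so the forms lay close together on that scale. A longer RNA gives more fragments per molecule, and the effective lengths in replicate 1 were 12654 nt for Cux1-201 and 2623 nt for Cux1-211. Counts not divided by length therefore do not compare numbers of RNA molecules.

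**Figure D2:**
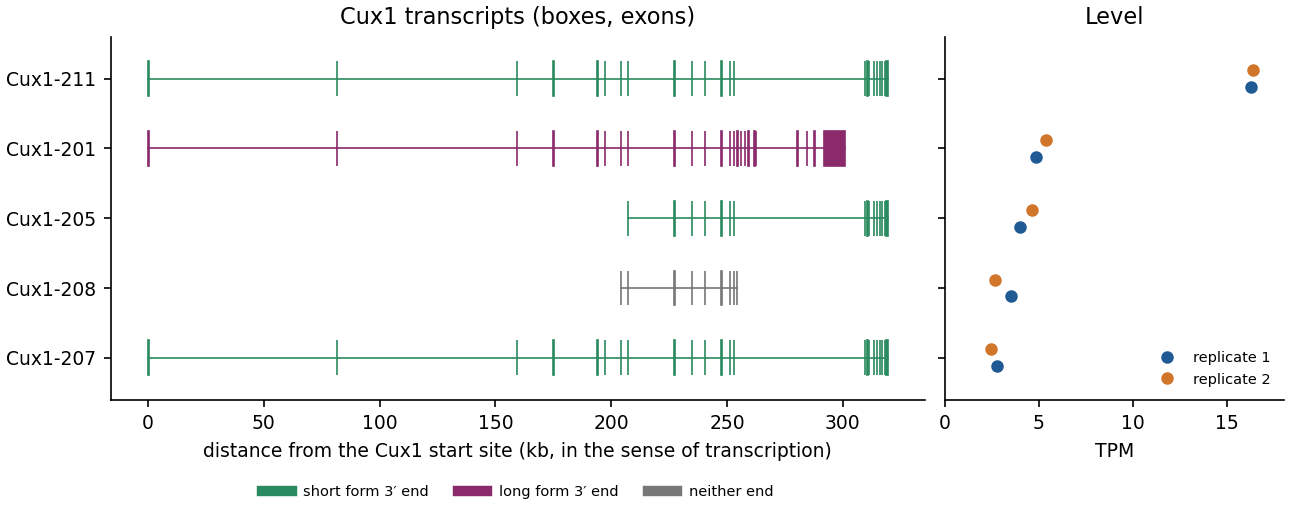
Exons (boxes, outlined so that short exons are visible) of the Cux1 transcripts that took 5% or more of the gene in either library, by distance from the start site in kb, beside the TPM of each in both libraries. Cux1-211, with the short form's 3′ end, stands at 16.3 and 16.4 TPM, and Cux1-201, with the long form's, at 4.87 and 5.35 TPM.

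The relation of the Cux paralogs differs with the scale and with the form. As whole genes Cux1 exceeded Cux2 by 0.38 ± 0.14 on the log2 scale in TPM. By counts not divided by length the ratio was −0.084, so the genes lay close together on that scale. Against the long Cux1 form alone, Cux2 was higher by 2.09 ± 0.07, a 4.27-fold difference in TPM, and by 1.01 ± 0.06 in counts not divided by length, a 2.02-fold difference. With Cux2 limited to its 3 transcripts that carry the complete coding sequence (20.7 and 24.1 TPM), the difference was 1.88 ± 0.09. The comparison with the long form was added after the values were seen. Coding sequences of Cux1-201 and Cux2-202, both 1426 codons, were identical at 67.1% of aligned bases, and their longest shared run was 23 nt.

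**Figure D3:**
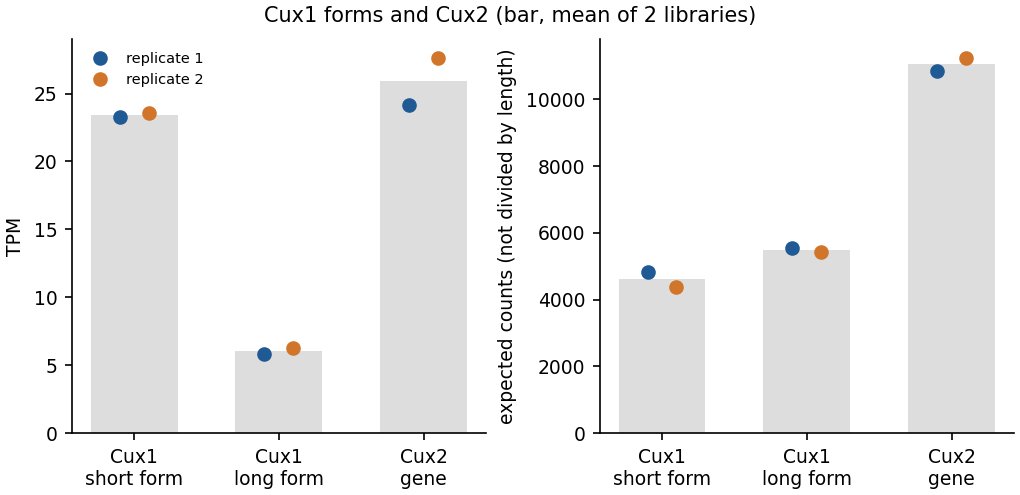
Summed TPM (left) and summed expected counts not divided by length (right) of the Cux1 short form, the Cux1 long form and the Cux2 gene; bars are means of 2 libraries and points are the libraries. Cux2 lies above the Cux1 long form in both libraries on both scales, whereas the short form lies above the long form in TPM only.

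Cux2 itself (ENSMUSG00000042589.14, chr5:121856366-122050102, minus strand) was led by Cux2-202 with 18.02 and 19.96 TPM, or 73.4 ± 1.72% of the gene. Cux2-210, which starts inside the gene and carries the same coding length of 4278 nt, took 12.5 ± 2.89%, with 2.52 and 4.02 TPM and deposited intervals that overlapped between the libraries. Cux2-201, from a start site between them, was near the bottom at 0.17 and 0.10 TPM. The deposited model of Cux2-202 is 6763 nt long and the M21 model 8784 nt, so its ends in the files may differ from those given here.

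Rorb (ENSMUSG00000036192.11, chr19:18930605-19111196, minus strand) was read from both of its annotated start sites. Rorb-203 starts at the distal site and encodes 1377 coding nt, and Rorb-201 starts at an internal site and encodes 1410 nt, so that the receptor's amino end differs. Both promoters are shown because the 2 transcripts carried nearly all of the gene (RefSeq, GRCm38.p6, minus strand). The 250 bases before each start are given, and capitals mark the sequence CCAAT, here on the opposite strand and so written ATTGG.
Rorb-203 promoter, chr19:19111197-19111446: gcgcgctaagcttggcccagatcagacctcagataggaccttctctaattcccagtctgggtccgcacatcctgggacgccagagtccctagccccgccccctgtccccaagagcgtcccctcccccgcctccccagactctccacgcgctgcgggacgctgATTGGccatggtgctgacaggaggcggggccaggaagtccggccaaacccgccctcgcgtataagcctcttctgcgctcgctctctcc
Rorb-201 promoter, chr19:19001118-19001367: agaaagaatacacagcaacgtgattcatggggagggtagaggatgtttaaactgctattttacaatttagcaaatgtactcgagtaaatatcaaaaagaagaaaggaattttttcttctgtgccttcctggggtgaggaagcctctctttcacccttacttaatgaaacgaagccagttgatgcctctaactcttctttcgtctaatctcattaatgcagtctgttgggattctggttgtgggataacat

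With 50 transcribed bases included, the distal promoter held 63.7% G and C and 20 CpG dinucleotides, and the internal one 41.0% and 5, where the median of 32851 promoters was 52.7% and 7. The CCAAT sequence, searched on both strands and found in 37.4% of promoters, was in the distal window and not in the internal one. Rorb-203 stood at 3.11 TPM in replicate 1 (deposited interval 2.79 to 3.54) and 3.83 TPM in replicate 2 (3.21 to 4.28), taking 56.9 and 65.8% of the gene. Rorb-201 stood at 2.19 TPM (1.70 to 2.48) and 1.82 TPM (1.31 to 2.42), taking 40.1 and 31.4%. The distal transcript was higher in both libraries with intervals apart, by 0.79 ± 0.40 on the log2 scale. The deposited posterior SD of the Rorb-203 count was 139 on 2340 counts in replicate 1 and 176 on 2606 in replicate 2. Rora, the paralog, had 8.03 and 8.92 TPM and stood above Rorb by 0.58 on the log2 scale (Rorb over Rora, −0.58 ± 0.04).

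For Lamp5 and Rasgrf2 the leading transcript was not a complete coding one. These are 2 of the 6 genes with several transcripts, and the same was found for 12.5% of such coding genes at 1 TPM or more. In Lamp5 (ENSMUSG00000027270.10, chr2:136052239-136069917, plus strand) the coding transcript Lamp5-201 stood at 48.1 and 63.3 TPM, and Lamp5-202, annotated as a processed transcript without coding sequence, at 50.8 and 68.9 TPM. Lamp5-202 was above by 0.10 ± 0.03 on the log2 scale, and the deposited intervals overlapped in replicate 1 (45.6 to 49.6 against 47.7 to 53.3) and not in replicate 2. By counts Lamp5-201 led, with 6954 against 4943 in replicate 1 and 8249 against 6036 in replicate 2. Lamp5-201 by itself, at 55.7 ± 10.7 TPM, was still the highest complete coding transcript of the 9 genes.

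In Rasgrf2 (ENSMUSG00000021708.12, chr13:91880400-92131656, minus strand) 93.1 ± 0.265% of TPM lay on incomplete models. Rasgrf2-205, which covers the 3′ part of the gene (chr13:91880400-91987989), stood at 23.4 and 24.6 TPM, and Rasgrf2-203, which covers the 5′ part (chr13:92028496-92131656), at 11.1 and 12.7 TPM. The 2 models do not overlap, so an RNA that spans both is counted in both when their TPM are summed, as the level of the gene does. Rasgrf2-205 alone, at a mean of 24.0 TPM, lay below the Cux1 gene at 33.5 TPM, whereas the summed gene lay above it. The Cux1 level is itself a sum, with 22.1% of its TPM on incomplete coding models. The complete model, Rasgrf2-201, had 2.71 and 2.78 TPM and holds almost no sequence outside the coding region (3567 nt, 3564 of them coding). The paralog Rasgrf1, also an exchange factor for Ras, had 89.4 and 81.5 TPM and exceeded Rasgrf2 (Rasgrf2 over Rasgrf1, −1.10 ± 0.17 on the log2 scale).

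Mdga1 (ENSMUSG00000043557.11, chr17:29827949-29970087, minus strand) was divided between 2 complete coding transcripts. Mdga1-201 stood at 5.74 and 5.27 TPM and Mdga1-208 at 3.99 and 4.60 TPM, with intervals that overlapped in replicate 2 and were apart in replicate 1. Together they took 70.6 ± 3.16% of TPM and 96.4 ± 0.0883% of counts, the rest of the TPM lying on partial or noncoding models. Mdga1 exceeded Mdga2, which had 8.35 and 9.67 TPM, by 0.63 ± 0.20 on the log2 scale. In all 6 genes with several transcripts the leading one was the same in both libraries, which also held for 92.1% of coding genes with several transcripts at 1 TPM or more and for 92.8% at 10 TPM or more.

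**Figure D4:**
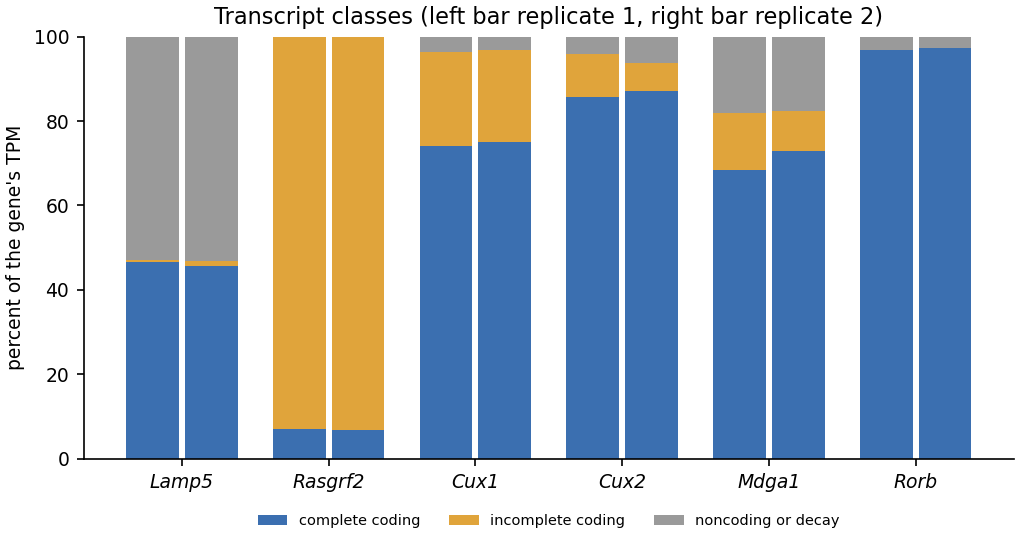
Percent of each gene's TPM on transcripts with a complete coding sequence, on coding models whose start or end is missing, and on noncoding or decay transcripts, in replicate 1 (left bar) and replicate 2 (right bar). Rasgrf2 lies almost wholly on incomplete models, Lamp5 is split between a coding and a noncoding transcript, and Rorb is almost wholly complete.

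The 3 POU genes have no introns and 1 transcript each, so no such split arises. Pou3f3 (ENSMUSG00000045515.3, chr1:42695768-42703176, plus strand) exceeded Pou3f2 (ENSMUSG00000095139.2, chr4:22482780-22488366, minus strand) by 1.10 ± 0.04 on the log2 scale and Pou3f1 (ENSMUSG00000090125.3, chr4:124656807-124660655, plus strand) by 1.78 ± 0.46. Pou3f2 exceeded Pou3f1 by 0.68 ± 0.49. Pou3f4, the fourth gene of the class, best known from the inner ear, had 5.78 and 5.11 TPM, and its order with Pou3f1 changed between the libraries (Pou3f1 over Pou3f4, −0.69 in replicate 1 and 0.16 in replicate 2).

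These genes are alike in sequence, with 74.0 to 75.1% identical bases among aligned coding positions of Pou3f1, Pou3f2 and Pou3f3. The longest identical run among the 3, shared by Pou3f1 and Pou3f2, is shown because a read shorter than such a run could not be assigned.
Pou3f1 and Pou3f2, 38 nt, from coding position 883 and 940: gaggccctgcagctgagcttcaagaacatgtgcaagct
The run is shorter than the reads. The posterior SD of the gene count was 0 for all 3 POU genes in both libraries. It was also 0 for Lamp5, Rasgrf2, Cux1, Mdga1 and Rorb, and 5.86 and 4.47 for Cux2, so a value of 0 is not particular to the POU genes. Coding sequences held 72.9% G and C in Pou3f1, 65.8% in Pou3f2 and 71.1% in Pou3f3, and the part of base composition in their levels was not tested.

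Between the libraries the 9 genes, which were chosen with earlier results of these data known, lay on 1 side. A ratio here is replicate 2 divided by replicate 1, as log2 of library-scaled counts (CPM with TMM factors, prior count 2), beside an exact binomial interval of 95% that covers counting error only. All 9 were higher in replicate 2, where 49.5% of the 14599 genes at 1 TPM or more were, with a median of 0.22 against 0.00 over all genes. In bulk tissue, more cells of a type and more RNA per cell cannot be told apart. By deposited TPM the median of all genes was −0.13, and on that scale Cux1, Mdga1 and Pou3f2 were lower in replicate 2, at −0.01, −0.07 and −0.03, all above that median. Each library is 1 sample, so these differences have no replicate check. Xist (107 and 77696 counts) and Eif2s3y (7150 and 3) split the same 2 libraries. A difference of sex therefore cannot be told apart from any other difference between the libraries, and its part was not tested.

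Pou3f1 had the largest ratio, 0.80 (0.69 to 0.92), from 1079 counts in replicate 1 and 1551 in replicate 2. Lamp5 followed at 0.55 (0.51 to 0.58), from 12331 and 14831 counts, and Cux2 at 0.33 (0.29 to 0.37), from 10852 and 11251 counts. These 3 passed 0.25 upward, as did 8.81% of all genes, and none passed −0.25, as did 9.04%. By deposited TPM the ratio of Cux2 was 0.20, under that size. Pou3f1 and Lamp5 also passed 0.50, as did 2.34% of all genes. The other 6 lay between 0.11 (Pou3f2, interval 0.04 to 0.18) and 0.24 (Rorb, 0.17 to 0.30).

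The deposited TPM intervals of the 2 libraries were apart for 4 genes, Lamp5, Rasgrf2, Cux2 and Pou3f1, as for 48.7% of all genes. They overlapped for the other 5. Part of the distance between ratios by count and by TPM came with the gene lengths used, since Cux1 was given an effective length of 3858 nt in one library (replicate 1) and 4035 nt in the other, and Mdga1 5449 and 5824 nt.

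**Figure D5:**
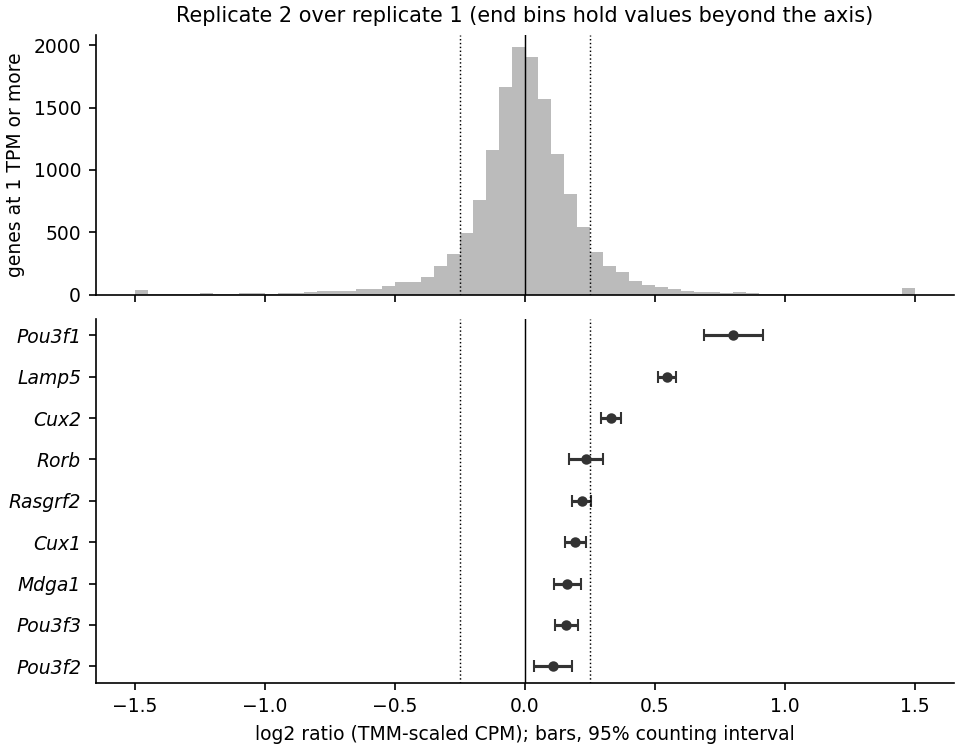
Histogram of the log2 ratio of replicate 2 over replicate 1 for genes at 1 TPM or more (top) and the ratio of each of the 9 genes with its 95% counting interval (bottom); dotted lines mark 0.25 in each direction. All 9 lie right of 0, from 0.11 for Pou3f2 to 0.80 for Pou3f1.

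Other layer genes are given beside the shares over all genes, of which 8.81% passed 0.25 upward and 9.04% downward. Of 18 further upper layer genes, 6 passed upward and 1 downward, with a median of 0.14. The neuropeptide gene Cartpt had 5.88 and 10.6 TPM, a ratio of 0.97, the potassium channel partner Kcnip2 had 73.2 and 90.0 TPM, a ratio of 0.47, and the matrix gene Matn2 had 13.6 and 8.93 TPM, a ratio of −0.47. Penk, the most abundant of the list at 102 and 116 TPM and also a striatal gene, had a ratio of 0.23.

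Of 6 genes of layer 4, the 5 at 1 TPM or more were all higher in replicate 2 and 4 passed 0.25, with a median of 0.50. Their lead was the Wnt agonist Rspo1, with 1.87 and 4.06 TPM and a ratio of 1.32, while Scnn1a, the common layer 4 driver gene, was under 1 TPM in both libraries at 0.83 and 0.82. Of 15 deep layer genes, 3 passed upward and 1 downward, with a median of −0.05. Nr4a2, which neuronal activity also induces, was the highest at 1.03 and the thyroid hormone binding gene Crym the lowest at −0.87, and the most abundant was Pcp4 with 502 and 403 TPM. The difference between the upper and deep layer lists was not tested. The 6 paralogs at 1 TPM or more had a median of −0.00, from −0.08 for Lamp2 to 0.22 for Rora, and none passed 0.25. Lamp1 and Lamp2, ubiquitous lysosomal members of the LAMP family, stood at 195 ± 9.11 and 29.95 ± 3.68 TPM, and Lamp3 was listed at 0 TPM in both libraries.

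Markers of other cells and states were compared in the same way, where 49.5% of all genes were higher in replicate 2, and their part in the ratios of the 9 genes was not tested. The lists farthest from that share were the immediate early, myelin, microglial and mural genes. Neurogliaform, oligodendrocyte precursor and astrocyte genes lay nearer to it, each with genes on both sides. All 13 immediate early genes were higher in replicate 2, with a median of 1.08, and their summed level was 253 and 495 TPM. Of 13 GABAergic genes 9 were higher, at a median of 0.21 and summed levels of 1464 and 1731 TPM. Gad1, the most abundant of them, had a ratio of 0.17 by scaled counts and 0.43 by TPM. For neurogliaform interneurons, the class that Lamp5 marks, 5 of 8 genes were higher, at a median of 0.04, from −0.18 for Ndnf to 0.33 for Npy, and summed levels of 529 and 573 TPM. Npy, also in the GABAergic list, had 339 and 397 TPM, a rise larger than that of the neurogliaform sum. Of 10 excitatory genes 8 were higher, at a median of 0.14 and summed levels of 2027 and 2295 TPM. Nrgn alone had 631 and 941 TPM, a rise larger than that of the excitatory sum.

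Among glial and vascular lists, myelin genes were higher for 8 of 9 (median 0.41, summed 2040 and 2474 TPM), and oligodendrocyte precursor genes for 4 of 7 (0.13, 174 and 179 TPM). Of the precursor list, Pdgfra, Cspg4 and C1ql1 were lower (−0.26, −0.23 and −0.23). Olig1, Sox10, Olig2 and Gpr17 were higher (0.29, 0.20, 0.14 and 0.13). Astrocyte genes were higher for 6 of 9 (0.05, 1569 and 1530 TPM). Aqp4, Slc1a3 and Sox9 were lower (−0.37, −0.19 and −0.04), and S100b was the highest at 0.23. All 11 microglial genes were lower (−0.41, 411 and 284 TPM), as were all 8 mural genes (−0.37, 200.2 and 155 TPM). Olfactory bulb genes, a tissue next to the frontal cortex, were higher for 5 of 6 (0.11, 493 and 508 TPM). No gene of these cell type lists was at 0.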

How the data were processed

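For each library the authors deposited quantifications of genes and of transcripts, made on mm10 with annotation M4 per the text deposited beside them. Aligner and program: not given in the sources used here, although column names follow RSEM. Used from the deposited tables were expected counts with posterior SDs, TPM (also as posterior means, with bounds of unstated level), FPKM as an alternative, and each transcript's percent of its gene. Interval bounds contained the TPM for all 9 genes.

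Symbols and mm10 coordinates were taken from GENCODE M21 through unversioned identifiers (42462 of 43346 genes); 43 of 50 transcripts had the same length in both releases. Promoters came from RefSeq, GRCm38.p6, which held 11 for 8 of the 9 genes. Of 153 names in the lists, 152 matched.

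Expected counts of annotated genes were rounded and scaled by TMM (1.02 and 0.982, edgeR 4.0.16 in R 4.3.3), with CPM at a prior count of 2. This step was tested on simulated data. SDs have 1 degree of freedom. Alternatives used DESeq2 1.42.0 size factors, library size, spike-ins, TPM, other lengths, a prior count of 0.5 and single libraries.

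The 9 genes, lists and pairs were chosen with earlier results of these data known. Named are the 9 genes, their transcripts at 5% or more of the gene, the fixed paralogs, and of each list its most abundant members and those at the ends of its ratio range. Not all of these are printed. Scnn1a, Cux2-201, the genes of the closing section and the Cux1 classes by 3′ end were picked once values had been seen. So were the precursor and astrocyte genes not at the ends of their lists. The labels name no molecular identifiers, so counting intervals leave out PCR duplication. With 2 libraries of 1 group no genes could be ranked by likeness of pattern.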

Additional observations from a re-analysis of the deposited data

How the results depend on the processing

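Counts not divided by length changed the sign of several mean log2 ratios, since these genes differ in length. Pou3f2 over Rorb became −0.34, the Cux1 short over long form −0.25, and Cux1 over Cux2 −0.084, where the counts were close. Pou3f1 over Pou3f4 became 0.15, but in TPM its order already changed between the libraries. With the long form alone, Cux1 over Cux2 was −2.09. The median level of the 9 genes, 15.5 TPM, was 31.4 as a share of nuclear protein-coding genes and 24.2 from counts over annotated length, where all genes are rescaled, and 15.4 to 15.6 TPM in single libraries. The median replicate ratio, 0.22, was 0.089 by deposited TPM, where the median of all genes was −0.13, and 0.17 to 0.22 under the other 5 scalings and prior counts. The count of genes past 0.25, 3 of 9, was 2 by deposited TPM. Neighbours called apart numbered 7 in either single library against 6, and paralog pairs 10 to 11 of 11 against 10 (9 by counts not divided by length). The Cux1 short over long ratio was 1.91 to 1.99 in single libraries. The leading transcript was the same in both libraries for 6 of 6 genes by posterior mean percent and by counts too, although by counts that transcript was Cux1-201 in Cux1 and Lamp5-201 in Lamp5. No paired analysis was possible because the series has 1 group. A replicate ratio without either library does not exist.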

Other observations

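Genes beside the 9 were read as well, and those named here were chosen after their values were seen. Pantr1, a noncoding RNA gene that lies 926 nt from Pou3f3 on the opposite strand (chr1:42590782-42694842), had 76.2 and 108 TPM, from 1913 and 1764 unscaled counts and effective lengths of 303 and 217 nt. Pantr2, on the other side of Pou3f3, had 5.62 and 3.71 TPM, and AC122898.1, on the same strand as Pou3f3 and overlapping it, had 230 and 193 counts. Antisense genes that overlap the 9 were low: Gm16758 at Mdga1 had 83 and 79 counts, Gm2164 at Pou3f1 had 13 and 8, Gm15637 at Cux2 had 1 and 4, and Gm16599 at Cux1 had 0 in both. Same-strand models inside Cux1, Gm38082 and A430110C17Rik, had 258 and 274 counts and 166 and 190 counts.

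Of the 11 promoters found for 8 of the 9 genes, 1 held TATAAA on either strand, a sequence in 13.6% of 32851 promoters, and the same promoter held ATCGAT, the core bound by Cux factors, which 0.925% of promoters hold. It is the Cux2 promoter at chr5:122047776-122048075, the start site of Cux2-201, which stood at 0.17 and 0.10 TPM. The matches to TATAAA and ATCGAT overlap there, so they are not separate features of the window. The octamer ATGCAAAT, the classical POU site, was in none of the 11 and in 1.74% of all promoters. CCAAT was in 4 of the 11 and in 37.4% of all promoters. A match is a description of the letters in the window and not a site.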
